A study of Homo sapiens with 12 samples.

Results

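A set of 1052 regions carried an H3K27ac peak in MiaPaCa2 cells after interferon beta (IFN-β) and in no other bulk library of the series. Peaks on chromosomes 1 to 22 and X from 8 libraries were merged into 170420 loci. A locus entered the set when each IFN-β-treated MiaPaCa2 library had a peak overlapping it, 1 bp being enough, and neither untreated MiaPaCa2 library nor any of the 4 CFPAC1 bulk libraries did. The set was therefore 0.617% of all loci, chosen by the presence or absence of peaks in those 8 libraries. Values from the 8 libraries are given below as description, without a test.

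MiaPaCa2 and CFPAC1 are lines of human pancreatic ductal adenocarcinoma. All 12 libraries were chromatin immunoprecipitations with the same antibody to H3K27ac, acetylation of lysine 27 of histone H3. There were 6 groups of 2 libraries each: bulk CFPAC1 untreated, bulk CFPAC1 given IFN-β at 1000 U/ml for 2 h, bulk MiaPaCa2 untreated, bulk MiaPaCa2 given the same dose for the same time, and 2 groups of CFPAC1 clones. The clones were isolated by dilution after infection with a lentiviral vector coding for Cas9, either without a guide against IRF1 (WT) or with one (IRF1KO); no IFN-β is stated for them. Each clone library is 1 clone, so a clone's own history and its genotype are not separated within a library. The labels do not say whether the libraries of a bulk group were separate cultures, so the spread between them may be technical. They name 2 kinds of sequencer without saying which library ran on which.

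H3K27ac marks active promoters and enhancers and is deposited mainly by the acetyltransferases p300 and CBP. Type I interferon binds the IFNAR receptor, whose kinases JAK1 and TYK2 lead to activation of the transcription factor complex ISGF3. ISGF3 binds the interferon-stimulated response element at antiviral genes, and IRF1 can bind a closely related sequence.

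Each list comprised between 59896 and 109861 peaks, together 63.6 to 94.8 Mb long. The treated MiaPaCa2 lists held 59896 and 69218 against 85442 and 71515 untreated. The 7 epithelial marker genes looked at all had a peak in the 4 CFPAC1 bulk libraries, and the same 3 (ELF3, KRT19 and CLDN4) had one in each MiaPaCa2 library. CDH1, EPCAM, KLF5 and GRHL2 had none there. Of 4 mesenchymal genes, each MiaPaCa2 library had a peak at 2 (VIM and ZEB1) and each CFPAC1 bulk library at all 4 (with CDH2 and FN1). Immune markers had a peak at 2 or 3 of 5 genes in each library, and fibroblast or endothelial markers at 0 to 2 of 5; their part in any value below was not tested. Depth is unknown, since peak lists hold no read counts.

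Few of the gained loci sat on promoters, as in the set obtained with the treatments exchanged. The interferon response element was found in 1 of the 26 promoter windows they touched, too few to compare with promoters at large. Sequence outside these windows was not searched. RefSeq promoter windows (GRCh38.p14, 250 bases before to 50 after a start) touched 24 of the 1052 loci (2.28%), against 2.09% of loci with a peak in both untreated MiaPaCa2 libraries and no other bulk library. They did so through 26 windows of 25 genes, and in 16 windows the start itself lay inside the locus. The first 3 sequences below are the 250 upstream bases of the genes whose start was covered by a locus that also ranked highest by enrichment or lay at an interferon signalling gene. RAB27B, in the largest run of gained loci, and LOC105370071, the single window with the response element core, were added after their values were seen. Each reads 5′ to 3′ on the gene's strand: ZNF845 on the plus strand (chr19:53333499-53333748), POLE on the minus strand (chr12:132687343-132687592), an alternative start of PTPN2 on the minus strand (chr18:12840963-12841212), RAB27B on the plus strand (chr18:54717607-54717856) and LOC105370071 on the minus strand (chr12:128074307-128074556). Capitals mark matches, on either strand, to the response element core (a GAAA repeat with any 2 bases between its copies), TTCNNNGAA (STAT dimers), TGANTCA (AP-1), the NF-κB motif, CCGGAAG (ETS factors) or GGGCGG (the GC box).
ZNF845: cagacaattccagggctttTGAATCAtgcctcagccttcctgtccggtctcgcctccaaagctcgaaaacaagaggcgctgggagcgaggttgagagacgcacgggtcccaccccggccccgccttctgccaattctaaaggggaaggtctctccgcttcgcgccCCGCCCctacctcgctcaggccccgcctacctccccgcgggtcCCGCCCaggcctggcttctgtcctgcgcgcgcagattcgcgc
POLE: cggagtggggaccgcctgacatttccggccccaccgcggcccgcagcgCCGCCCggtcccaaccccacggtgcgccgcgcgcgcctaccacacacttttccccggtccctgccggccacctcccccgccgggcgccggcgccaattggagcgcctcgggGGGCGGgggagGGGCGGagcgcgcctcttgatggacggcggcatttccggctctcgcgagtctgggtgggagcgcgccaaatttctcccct
PTPN2: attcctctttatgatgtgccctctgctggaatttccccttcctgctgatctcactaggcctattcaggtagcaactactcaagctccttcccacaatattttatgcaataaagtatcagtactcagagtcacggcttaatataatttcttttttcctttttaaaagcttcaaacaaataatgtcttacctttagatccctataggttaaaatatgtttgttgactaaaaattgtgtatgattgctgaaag
RAB27B: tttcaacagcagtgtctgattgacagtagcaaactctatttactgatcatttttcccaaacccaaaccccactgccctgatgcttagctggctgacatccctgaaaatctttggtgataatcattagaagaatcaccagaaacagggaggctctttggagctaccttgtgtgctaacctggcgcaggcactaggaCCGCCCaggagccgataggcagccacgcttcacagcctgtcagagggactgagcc
LOC105370071: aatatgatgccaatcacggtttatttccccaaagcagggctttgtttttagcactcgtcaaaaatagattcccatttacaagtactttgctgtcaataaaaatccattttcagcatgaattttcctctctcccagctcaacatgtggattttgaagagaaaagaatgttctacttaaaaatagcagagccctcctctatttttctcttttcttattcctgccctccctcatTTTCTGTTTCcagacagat
The PTPN2 sequence held no match to any of the 6 motifs. ZNF845 held 1 AP-1 match and GC boxes, with a CCGGAAG match past its start that is not printed, and POLE and RAB27B held GC boxes alone.

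Over the whole windows, the response element core was found in 1 of the 26 (3.85%), against 1250 of all 34961 windows (3.58%). Among 57 windows touched by loci that MiaPaCa2 gained with IFN-β and that both untreated CFPAC1 libraries already had, 12 (21.1%) held it. GGGCGG was found in 17 of the 26 (65.4%) against 45.0% of all windows, and the median GC content was 64.8% against 58.7%. TGANTCA was in 3 (11.5%) against 7.68%, TTCNNNGAA in 2 (7.69%) against 7.66%, CCGGAAG in 1 (3.85%) against 10.3%, and the NF-κB motif in none against 0.561%. The windows are few, and a match is a run of letters, not a bound site.

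Most of the gained loci lay close to chromatin that was acetylated before treatment, as did most loci with a MiaPaCa2 and no CFPAC1 peak. Their median width was 442.5 bp (10th to 90th percentile 276.1 to 799.7 bp), and 47 were wider than 1000 bp. The median was 479 bp over all loci, 451 bp for the exchanged rule (both untreated MiaPaCa2 libraries and no other bulk library), 338 bp for all loci with a MiaPaCa2 and no CFPAC1 peak, and 1204 bp for the 216 loci gained in both lines. Of the 1052, 654 (62.2%) lay within 1 kb of an untreated MiaPaCa2 peak, at a median distance of 618.5 bp, and 217 (20.6%) had such a peak within 1 kb on both sides. For loci gained in both lines, 33 (15.3%) lay within 1 kb of an untreated MiaPaCa2 peak and the median distance was 8594.5 bp. Only 34 of the restricted loci were more than 50 kb from one. Untreated MiaPaCa2 libraries 1 and 2 had a peak in the 5 kb flanks of 76.8% and 76.3% of the restricted loci. The shares were 83.9% and 77.1% over all loci with a MiaPaCa2 and no CFPAC1 peak. When peaks within 500 bp were merged first, 488 loci met the rule, overlapping 417 of the 1052.

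**Figure D1:**
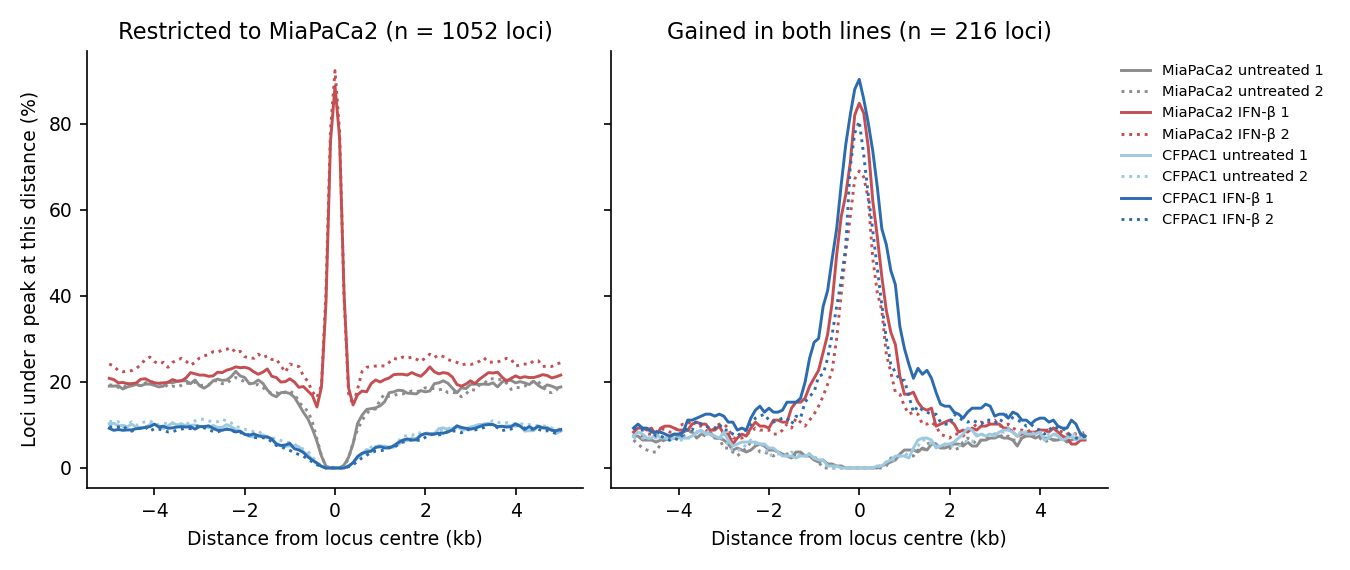
Share of loci under a peak (y axis, %) at each distance from the locus centre (x axis, kb) in the 8 bulk libraries, for the 1052 loci restricted to MiaPaCa2 (left) and the 216 gained in both lines (right); solid and dotted lines are libraries 1 and 2 of a group. Centre values follow from the rule. At 5 kb before the centre the untreated MiaPaCa2 libraries still covered 19.0% and 19.3% of the restricted loci and the treated ones 20.8% and 24.1%, against 9.22 to 10.8% in CFPAC1.

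In the 5 kb on either side of the restricted loci, the untreated MiaPaCa2 libraries covered a median of 1301 and 1305.5 bp and the treated ones 1638.5 and 1948 bp. The 2 treated values were above both untreated ones, in the same libraries that chose the loci for peaks after treatment. Around the loci of the exchanged rule the medians were 2214.5 and 1415 bp untreated, and 690.5 and 1465 bp treated. Around all 61260 loci with a MiaPaCa2 peak and no CFPAC1 peak, those medians were 1654 and 1111 bp untreated, and 696 and 1339.5 bp treated, so there the groups overlapped. In each CFPAC1 bulk library the median around the restricted loci was 0, as it was around the exchanged-rule loci and around all 61260. A CFPAC1 peak was nevertheless within 5 kb of 598 of the restricted loci (56.8%). That share was 51.6% for the exchanged rule and 50.1% over all 61260. Over 100 kb from any CFPAC1 peak were 32 of the 1052 restricted loci and 1487 of the 61260.

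Most of the loci were distal, as most loci of the series were. An end of a protein-coding gene lay within 1 kb of 74 loci (7.03%, Wilson 95% interval 5.64 to 8.74%, counting error only), against 8.34% of all loci with a MiaPaCa2 and no CFPAC1 peak and 13.2% of all loci. Within 5 kb there was one for 282 (26.8%), against 27.7% of all loci. Within 50 kb there was one for 756 (71.9%), against 70.2% of all loci, and 631 (60.0%) lay in a gene body, against 59.2%. The rule applied with the treatments exchanged, both untreated MiaPaCa2 libraries and no other bulk library, gave 2538 loci (1.49% of all), of which 8.94% lay within 1 kb of a gene end. With the lists as deposited, more MiaPaCa2-restricted loci thus met the rule in the untreated direction than in the treated one. The untreated MiaPaCa2 lists were also longer, at 85442 and 71515 peaks against 59896 and 69218. With the same number of peaks per library the treated rule gave 1655 loci. The exchanged rule was not counted that way, so no direction is read from these counts.

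Peaks in the restricted loci were mostly weaker than a typical peak of the same library. The authors' fold enrichment had a median of 4.38 in the first treated library (2.61 to 15.9) and 3.89 in the second (2.21 to 10.3), where the medians of the whole lists were 5.75 and 4.78. Over all loci with a MiaPaCa2 and no CFPAC1 peak the medians were 4.62 and 4.08, close to those of the restricted set. In the first library 150 loci (14.3%) were above its list median, and 194 (18.4%) in the second. The weaker of a locus's 2 peaks had a −log10 q of 5 or more at 216 loci (20.5%), and both reached 10 at 13. The weakest that entered, near RBMX, AGTRAP and DENND5A, had a −log10 q of 1.33, 1.35 and 1.35 in one treated library. Just outside were a locus near TRA2A, kept out by a peak of 1.31 in treated CFPAC1 library 1, and loci near RBMS3 and DPYD, each kept out by a peak of 1.32 in untreated MiaPaCa2 library 2. In all, 2595 loci had a peak in both treated libraries and in exactly 1 other bulk library, which was an untreated MiaPaCa2 library for 2383 and a CFPAC1 library for 212.

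**Figure D2:**
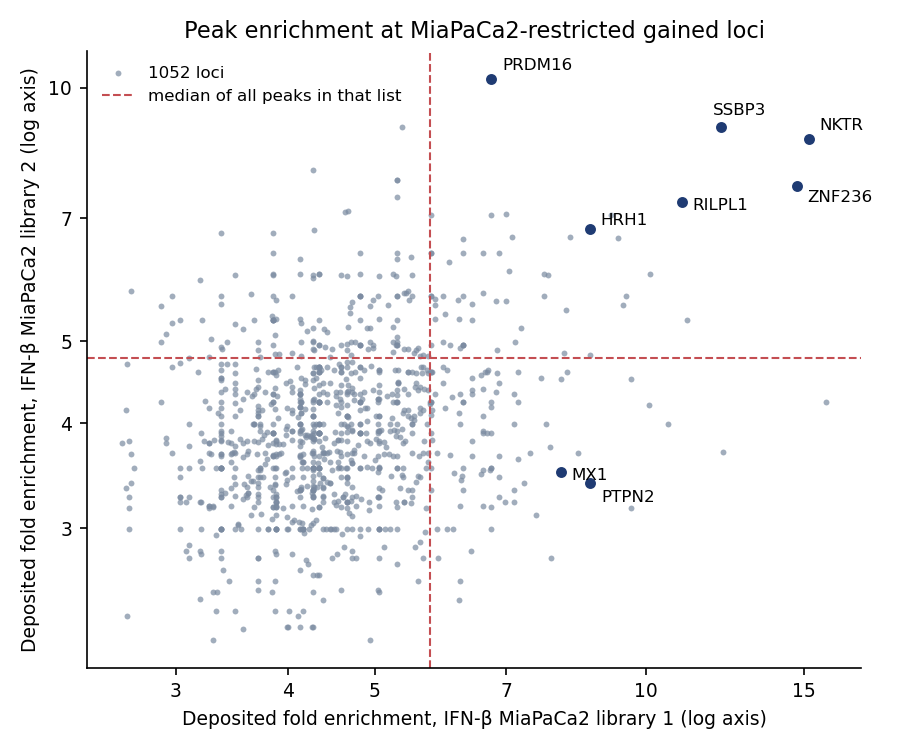
The authors' fold enrichment over local background in treated MiaPaCa2 library 1 (x axis) and 2 (y axis), both on log axes, for the 1052 loci; dashed lines are the medians of all peaks in each list (5.75 and 4.78). Most points sit below both lines; of the 10 loci at 10 or more in library 1, those in SSBP3, NKTR, ZNF236 and RILPL1, at 11.0 to 15.2, were also above 7 in library 2.

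Ranked by the poorer of their 2 within-library ranks, the 25 strongest loci had folds of 6.18 to 15.2 and 5.60 to 10.3 and a median width of 674 bp. The widest spanned 1891 bp. Of the 25, 16 lay in a gene body and 13 were over 1 kb from an untreated MiaPaCa2 peak. The top locus lay in SSBP3, which codes for a partner of LIM-domain transcription complexes, at chr1:54263051-54264941, with folds of 12.1 and 8.98. Its peaks covered 1776 and 1402 bp in the treated libraries, 0 in the other 6 bulk libraries by the rule, 0 in 3 clone libraries and 70 bp in IRF1KO clone 2. The nearest gene end belonged to MRPL37, a mitochondrial ribosomal protein gene, and no bulk library had a peak in the 5 kb on either side.

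NKTR, a cyclophilin-related gene, held a 1632 bp locus (chr3:42637864-42639495) with folds of 15.2 and 8.70 and no clone peak. ZNF236, a zinc finger gene, held one of 1065 bp (chr18:76956746-76957810) with folds of 14.8 and 7.65, and it lay 25734 bp from an untreated MiaPaCa2 peak. RILPL1, whose product binds Rab GTPases, held one of 801 bp (chr12:123479305-123480105; 11.0 and 7.32) whose nearest gene end was that of SNRNP35. These 4 were isolated: the nearest untreated peak was 2956 to 25734 bp away. TAF3, which codes for a TFIID subunit, held a 1316 bp locus (chr10:7964473-7965788; 7.11 and 6.65) still farther from one, at 84218 bp. Besides the SSBP3 and NKTR loci, the 5 widest of the whole set were those in SPIDR (1681 bp) and PARP4 (1613 bp) and one 27019 bp from HNRNPA1L3 (1608 bp).

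Some others among the 25 lay within 1 kb of an untreated peak. At POLE, the catalytic subunit of DNA polymerase epsilon, a 304 bp locus over the start (chr12:132687196-132687499; 6.74 and 7.07) lay 82 bp from an untreated peak, and IRF1KO clone 1 covered 240 bp of it. At ZNF845 the 469 bp locus over the start (chr19:53333741-53334209; 9.15 and 7.07) was covered for 200 bp in WT clone 2 and 354 bp in IRF1KO clone 1. A 329 bp locus next to the chemokine gene CXCL16 (chr17:4739961-4740289; 6.99 and 7.08) lay 103 bp from an untreated MiaPaCa2 peak and 98 bp from a CFPAC1 peak. PRDM16, which codes for a transcriptional regulator of brown fat, had a 613 bp locus 446 bp from a gene end (chr1:3069649-3070261) with folds of 6.74 and 10.3, the largest in the second library. The nearest CFPAC1 peak was 223249 bp away. Near KLF4, a transcription factor gene, the locus (chr9:107727148-107727558; 6.88 and 6.36) was 237379 bp from the gene and, unlike those, 5475 bp from an untreated peak.

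Genes of the interferon response took a small share of the set. Interferon-stimulated genes, a list of 104, were the nearest gene within 50 kb for 7 loci (0.665%), against 0.405% of all loci and 0.158% of those from the exchanged rule. Of the 216 loci gained in both lines, 12 (5.56%) were nearest to one. The list of 34 interferon signalling genes was nearest for 3 (0.285% against 0.207% of all loci), and that of 31 antigen presentation genes for 2 (0.190% against 0.0822%). Counted by gene, 15 of the 104 interferon-stimulated genes had a restricted locus within 50 kb. Neighbouring genes can be counted through the same locus, as IFITM1, IFITM2 and IFITM3, or DDX60 and DDX60L. The same count was 18 for the 216 loci gained in both lines and 6 for the 2538 of the exchanged rule. For loci that MiaPaCa2 gained and both untreated CFPAC1 libraries already had, it was 26.

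The MX genes, which code for dynamin-like GTPases that block viruses, gave the widest of these 12 loci. A 1384 bp locus spanned the 3′ end of MX1 (chr21:41458182-41459565) with folds of 8.05 and 3.50, and peaks covered 1213 and 279 bp of it, so the 2 treated libraries differed several-fold in extent. In its 5 kb flanks the treated MiaPaCa2 libraries covered 1604 and 1623 bp, both untreated ones 0, and the CFPAC1 bulk libraries 0 except 280 bp in treated library 1. A CFPAC1 peak lay 272 bp from it. MX2 held a 289 bp locus (chr21:41375874-41376162; 4.18 and 4.16), with flanks of 284 and 358 bp untreated and 1912 and 557 bp treated. No clone had a peak in either.

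DDX60, an antiviral helicase gene, held a 491 bp locus (chr4:168322373-168322863; 5.50 and 4.60). Its flanks were covered for 963 and 659 bp in untreated MiaPaCa2 and 4049 and 4037 bp after IFN-β, and for 2381 and 2802 bp in untreated CFPAC1 and 4297 and 4087 bp after IFN-β. So the neighbourhood was more widely covered after treatment in both lines, and only the locus itself was restricted. UBE2L6, the conjugating enzyme for ISG15, showed the same arrangement: its 280 bp locus (chr11:57562057-57562336; 4.33 and 4.60) had flanks of 1382 and 596 bp untreated against 2551 and 2580 bp treated in MiaPaCa2, and 1823 and 1594 bp against 2569 and 2445 bp in CFPAC1. Near B2M, the light chain of MHC class I, the 485 bp locus (chr15:44721926-44722410; 6.74 and 3.18) had flanks of 742 and 1494 bp untreated and 2738 and 3061 bp treated. The CFPAC1 flanks there were 2368 and 1267 bp untreated and 2806 and 2418 bp treated.

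IFITM2, whose product blocks viral entry, had a locus of 274 bp (4.13 and 6.01). Its flanks were covered for 3904 and 1531 bp in untreated MiaPaCa2 and 3205 and 3300 bp after IFN-β, so the groups overlapped there. TRIM14, an adaptor in antiviral signalling, had a locus of 413 bp (5.05 and 3.91). One of 431 bp (chr10:89341030-89341460), with folds of 5.29 and 2.72, lay in the body of LIPA. It was 62 bp from an end of IFIT3, which codes for an antiviral RNA-response protein. Its flanks were covered for 383 and 1199 bp in untreated MiaPaCa2 and 1247 and 1836 bp after IFN-β. In CFPAC1 the order was reversed, with 434 and 1556 bp untreated and 0 and 309 bp treated. PSMB9, an immunoproteasome subunit gene, had a 680 bp locus 7467 bp away (chr6:32867318-32867997; 4.31 and 2.64) with no peak in its flanks in any library. For all 12 loci of these lists no clone library had a peak, and 9 were over 1 kb from an untreated MiaPaCa2 peak.

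The 3 signalling loci had phosphatase genes as their nearest genes. PTPN2 dephosphorylates JAK1 and so dampens the pathway; a 1074 bp locus in its body covered the alternative start printed above (chr18:12840803-12841876), with folds of 8.68 and 3.39. It lay 192 bp from an untreated MiaPaCa2 peak and 116 bp from a CFPAC1 peak, and its flanks were covered for 5091 and 3047 bp untreated and 6394 and 5662 bp treated. A second locus of 479 bp (chr18:12904217-12904695; 4.14 and 2.99) lay outside the gene, 19980 bp from its end, and had no peak in its flanks in any library. The 880 bp locus nearest to PTPN1, a related phosphatase gene, lay 27582 bp outside it (chr20:50481922-50482801; 5.04 and 2.53) and 37 bp from a CFPAC1 peak.

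**Figure D3:**
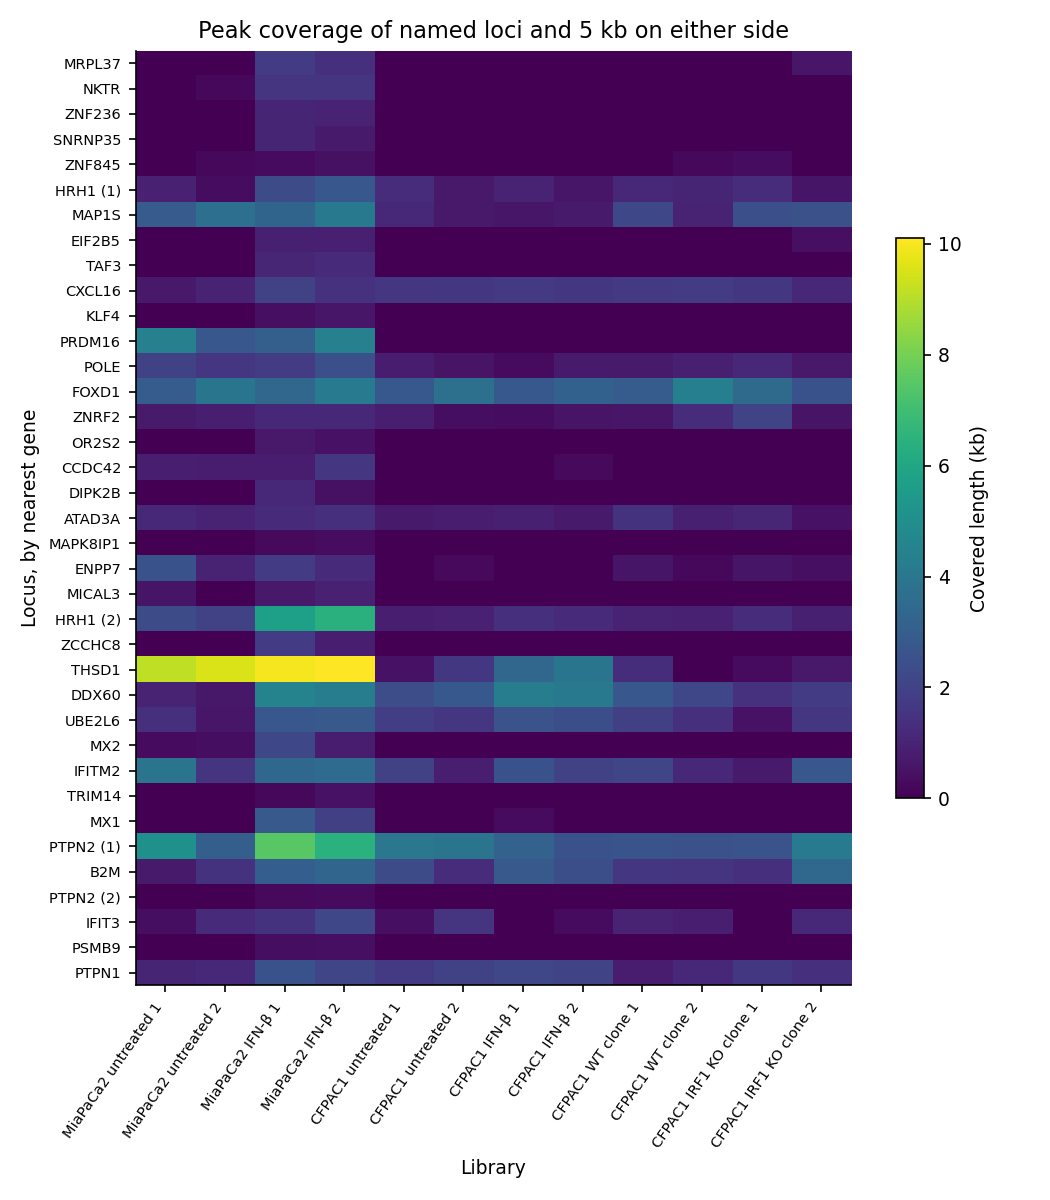
Length under peaks (colour, kb, scale from 0) in each locus plus 5 kb on either side, for the 25 highest-ranked loci and the 12 nearest to interferon-response and antigen presentation genes (rows, by nearest gene; the MRPL37 row is the SSBP3 locus) in all 12 libraries (columns). The ZNF236 and TAF3 rows are covered in treated MiaPaCa2 alone, whereas DDX60 and B2M are covered in every library and more widely in both treated MiaPaCa2 ones than in the untreated ones.

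Part of the set lay in runs. These were not counted for any other set of loci, so no clustering particular to this set is read. With neighbours chained where under 100 kb apart, 577 stood alone, 100 pairs formed, and 72 runs of 3 or more held 275 loci (26.1%). The largest had 9 loci over 183520 bp at RAB27B, a Rab GTPase of exocytosis, and CCDC68 (chr18:54717650-54901169), 8 of them inside RAB27B. Peaks over that span covered 47.9 and 47.0 kb in untreated MiaPaCa2, 56.5 and 70.9 kb after IFN-β, and 13.7 to 23.4 kb in bulk CFPAC1. Here the treated libraries exceeded the untreated ones on top of broad earlier coverage.

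A run of 6 loci at HRH1 and before it, the histamine H1 receptor gene (chr3:11088736-11154323), had little earlier coverage: 3.68 and 3.63 kb untreated, 11.8 and 13.2 kb treated. CFPAC1 bulk libraries covered 5.68 to 8.40 kb of that span. The run of 6 at SLC4A1AP and RBKS (chr2:27701758-27794709) was covered for 19.8 and 20.4 kb untreated and 45.3 and 41.1 kb treated. At DAPK1 and CTSL, a death-associated kinase and a lysosomal protease (chr9:87683982-87727974), 5 loci lay in a span covered for 2.56 and 4.04 kb untreated and 9.10 and 8.42 kb treated. In these 3 spans both treated libraries were over 2-fold above both untreated ones.

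PARP4, a poly-ADP-ribose polymerase of vault particles, held a run of 6 (chr13:24458778-24542922) covered for 12.1 and 14.2 kb untreated and 19.1 and 22.2 kb treated. A run of 5 lay at the inflammatory caspase genes CASP4 and CASP1 and their relative CARD16 (chr11:104959681-105070381), with 16.7 and 16.5 kb untreated and 22.6 and 20.8 kb treated, against 3.29 to 4.49 kb in bulk CFPAC1. By contrast RAD51B, a homologous recombination gene, held 6 restricted loci (chr14:68352478-68499399), yet the span as a whole was covered for 56.1 and 47.3 kb untreated and 53.8 and 57.3 kb treated, which overlap. These spans were drawn around loci chosen for presence after treatment, so the direction is partly set by the choice.

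The CFPAC1 clones were the libraries that the rule did not use. H3K27ac coverage around IRF1 (gene plus 5 kb on either side) was 5485 and 6341 bp in the WT clones and 8271 and 14027 bp in the IRF1KO clones; a small Cas9 lesion need not alter a peak, so this does not check the knockout. A peak was found at 132 of the 1052 loci (12.5%, Wilson interval 10.7 to 14.7%) in at least 1 clone, against 13.9% of all loci with a MiaPaCa2 and no bulk CFPAC1 peak. By clone, 28 and 23 loci had one in WT and 45 and 88 in IRF1KO. The mean was 66.5 ± 30.4 in IRF1KO and 25.5 ± 3.54 in WT (SD, n = 2 each), with a two-sided exact permutation p of 0.333, the smallest that 2 against 2 can give. IRF1KO clone 2 also had the longest list of the series, 109861 peaks against 80618 to 90159 in the other 3 clones, and among all loci with a MiaPaCa2 and no bulk CFPAC1 peak it held 10.3%, against 2.12 to 3.66% in the other 3.

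**Figure D4:**
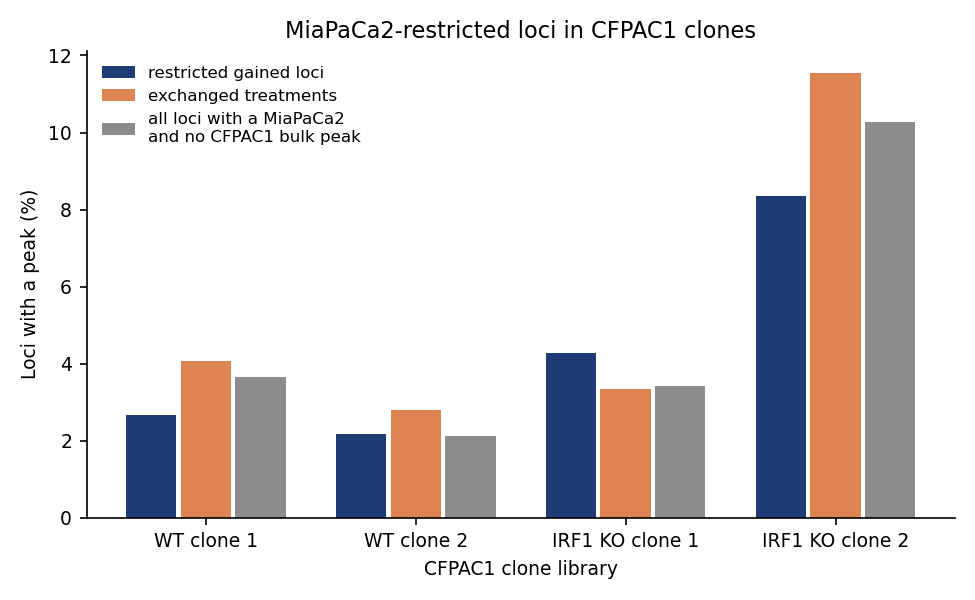
Share of loci with a peak (y axis, %, from 0) in each CFPAC1 clone library (x axis) for the restricted gained loci, the loci from the exchanged rule and all loci with a MiaPaCa2 and no bulk CFPAC1 peak. IRF1KO clone 2 is highest for all 3 sets (8.37, 11.5 and 10.3%). IRF1KO clone 1, at 4.28% of the restricted loci, is above both WT clones (2.66 and 2.19%). For the exchanged rule it is at 3.35%, below WT clone 1 (4.06%) and above WT clone 2 (2.80%). For all loci with a MiaPaCa2 and no bulk CFPAC1 peak the order is the same (3.42, 3.66 and 2.12%).

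Both IRF1KO clones and neither WT clone had a peak at 16 restricted loci (1.52%), against 1.80% of all 170420 loci, and both WT clones and neither IRF1KO clone at 2 (0.190%), against 1.57%. Among all loci with a MiaPaCa2 and no bulk CFPAC1 peak those shares were 0.955% and 0.178%. Covered length was compared between the clone groups with limma over the 66887 loci covered in at least 2 clones, as log2 of covered bp plus 100. No locus passed an adjusted p under 0.05 (percent called 0 in each direction), while 7330 had an unadjusted p under 0.05. Of the 42 restricted loci that could be tested, none passed, and 16 had an unadjusted p under 0.05. All 16 were covered in both clones of one group and in neither of the other. Such loci passed the filter only through the covered group, which fixes their direction and makes a small p likelier. Neither a direction nor a share of small p-values is therefore read over the 42. The other 1010 restricted loci had coverage in fewer than 2 clones.

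CREB5, a CRE-binding transcription factor gene, held a locus (chr7:28409363-28409869) covered for 0 and 0 bp in WT and 338 and 448 bp in IRF1KO. It was also 274285 bp from any untreated MiaPaCa2 peak. A locus 117944 bp from CEBPB, another bZIP factor gene (chr20:50310634-50311103), was covered for 307 and 470 bp in IRF1KO and not in WT. APBA2 held a locus covered for 309 and 215 bp in the IRF1KO clones. RUSC2 held one covered for 189 and 461 bp in them, 8312 bp from an end of CIMIP2B and 73 bp from a bulk CFPAC1 peak. Both WT clones covered 0 bp of either locus. In the opposite direction, the INTS14 locus, named after its values were seen, was covered for 218 and 200 bp in WT and 0 in IRF1KO. These loci were picked for peaks in both clones of one group and none of the other, so their values are a description; the limma p-values of the 42, adjusted over all 66887 loci, were 0.363 or more.

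With all 12 libraries in the fit, limma called 1729 loci, 686 higher and 1043 lower in IRF1KO, and 6 of them were restricted: KCTD10, GLI3, CDYL, CREB5, CEBPB and SLC1A4. Each of the 6 was covered in both IRF1KO clones and in neither WT clone, so only its IRF1KO coverage let it into the fit, and groups that the rule holds at 0 add almost no spread. No direction is read from these 6. Without IRF1KO clone 1 the clone fit called 1941 loci and without IRF1KO clone 2 it called 1025, none of them restricted in either case.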

How the data were processed

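H3K27ac ChIP-seq peak lists of 12 libraries were used. Per the submitters' processing notes, the tools were Trimmomatic 0.38, Bowtie2 2.2.6, SAMtools and MACS2 2.1.0.20150731 and the build was GRCh38; there is 1 list per library. The control, filters and depth are not given in the sources used here. Each deposited peak carries the authors' fold enrichment ratio and −log10 p and −log10 q values, made per library and used here only for description, ranking or filtering inside one list; the deposited score column was not used. The smallest −log10 q was 1.30 to 1.37, and 0 to 55 peaks per library on other chromosomes were left out.

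Covered length is the bp of a locus under peaks. The clone comparison used log2(covered bp + 100), centred per library, with limma 3.58.1 (R 4.3.3) and Benjamini-Hochberg adjustment over 66887 loci; the procedure was tested on simulated data. Python 3.11.15 with scipy 1.17.1, pandas 2.3.3 and numpy 2.4.6 gave the other values. Genes came from RefSeq by the nearest protein-coding gene end within 50 kb for lists, and without limit for names. Without strand in the gene table, a start and an end count alike, except for promoter windows. The loci and gene lists were chosen with earlier results of these data known.

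Named loci were the 25 best by the poorer within-library rank, all nearest to interferon-stimulated, interferon signalling or antigen presentation genes, up to 5 with peaks in both clones of one group and neither of the other, the 5 widest, the 10 largest runs, 3 either side of the threshold, and the best 3 of each other list. A few named items are not reported here.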

Additional observations from a re-analysis of the deposited data

How the results depend on the processing

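The number of restricted loci was 1052 as reported, 741 with peaks of −log10 q of at least 5 (overlapping 216 of the 1052), 488 after merging peaks within 500 bp (overlapping 417), and 1655 with the same number of peaks per library (overlapping 814). Leaving out a library gave 1085 to 8222: 8222 and 4430 without treated MiaPaCa2 library 1 or 2, 2746 and 2137 without untreated library 1 or 2. The share within 1 kb of a gene end was 9.72% at the stricter q, 26.8% at 5 kb, and 5.40 to 9.58% with a library left out. Loci nearest to interferon-stimulated genes numbered 15 with equal list lengths and 7 to 37 with a library left out; 13 came without treated CFPAC1 library 1. The share with a clone peak was 10.7% at the stricter q and with the 500 bp merge, 8.58% with equal list lengths, and 9.39 to 16.1% with a library left out. The clone fit called 2677 loci without a filter on coverage (0 restricted), 1729 (6 restricted) with all 12 libraries, and 0 to 1941 with a clone left out, where the lone clone is assumed to vary like the other group. For these changes the cause was not tested. With clone number as a replicate block 0 loci were called (6307 at unadjusted p under 0.05), and 0 with the numbers crossed, chosen after seeing the data. The numbers mark separate clones, and same-numbered clones correlated at -0.11 in their deviations. Covered length measures extent, not signal height.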

Other observations

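Lists outside the interferon response gave a few loci each. AP-1 and immediate early genes were nearest for 5 (0.475% against 0.173% of all loci): 3 at KLF6, 1 at EGR1 and 1 at DUSP1, a phosphatase of MAP kinases. The best KLF6 locus (chr10:3818125-3818662) had folds of 5.17 and 5.52 and lay 311 bp from an untreated peak. Epithelial genes were nearest for 4, where they were nearest for 0.199% of all loci, at KRT8, KRT18 and CDH3. In each MiaPaCa2 library the epithelial genes ELF3, KRT19 and CLDN4 had a peak, and CDH1, EPCAM, KLF5 and GRHL2 had none. The best of the 4 loci, nearest KRT18 (chr12:52936180-52936519), had folds of 5.23 and 6.01 and lay 225 bp from an untreated MiaPaCa2 peak. Of the others, those nearest KRT18 and KRT8 lay 263 and 126 bp from one. Metabolic genes were nearest for 2 (0.190% against 0.289%), NAMPT and PFKP. The mesenchymal list was nearest for 1, TGFBI (0.0951% against 0.0951%). NF-κB, immune and fibroblast or endothelial lists were nearest for 0, where they were nearest for 0.158%, 0.0264% and 0.0663% of all loci.

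Chosen after its values were seen, a 1389 bp locus 961 bp from BACE2 (chr21:41283491-41284879; folds 8.665 and 4.82) lay on the same chromosome as the MX loci, 84358 bp from an untreated MiaPaCa2 peak and 63026 bp from a CFPAC1 one. By chromosome, the restricted loci were 1.72% of the loci with a MiaPaCa2 and no bulk CFPAC1 peak over all chromosomes. The highest shares were 2.92% on chromosome 18, 2.76% on 13 and 2.63% on 12, and the lowest 0.861% on 19 and 1.08% on 17. Single runs weigh in these shares. On chromosome 18, 9 of the 35 restricted loci were the run at RAB27B and CCDC68. On 13, the 45 included the run of 6 at PARP4 and one of 5 at THSD1 and CKAP2.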
